A study of Mus musculus with 16 samples.

Results

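TCRBV16-01 is the sequencing service's name for Trbv16, a variable (V) gene of the mouse T cell receptor β (TCRβ) locus that older nomenclature calls Vβ11. All entries with that V gene label were taken, and no other criterion was used, which gave 10639 of the 198953 rearrangements found in T cells from 16 mouse tumors. Of these, 6866 were productive, meaning in frame and free of stop codons, 3707 were out-of-frame and 66 held a stop codon. The productive entries spelled 5892 different CDR3s, the complementarity-determining region that spans the joins. The leading CDR3 was defined as the productive TCRBV16-01 CDR3 with the most templates summed over all tumors, a template being a starting molecule as counted by the service. The gene and this CDR3 were picked with these levels in view, so the levels are given as a description.

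The tumors were subcutaneous grafts of KPC.Luc, a luciferase-expressing mouse pancreatic ductal adenocarcinoma line, in female C57BL/6 mice, with 4 mice and 1 sample per mouse in each of 4 groups. Every mouse received a peptide at 10 µg daily and an antibody at 200 µg every 3 days for 10 days. Control mice were given scrambled peptide and isotype IgG. The ANT008 group was given ANT008, a peptide antagonist of the receptors for vasoactive intestinal peptide, with IgG. The anti-PD-1 group was given scrambled peptide with antibody to the checkpoint receptor PD-1, and the combination group was given ANT008 with anti-PD-1. The sample titles name T cells. The paper's methods describe magnetic selection of T cells on CD90.2, at a purity of 80 to 85%, under its Nanostring expression assay. Its section on TCR sequencing does not repeat this. Such a purity would leave some other cells in each sample. A TCRβ survey counts rearranged β chains only, so the labelled cell type could not be checked against other markers. The labels and the methods give RNA as the molecule extracted, while the study's results section speaks of DNA. With RNA as input, templates would count transcripts, and more cells of a clone cannot be told apart from more RNA per cell.

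A TCRβ chain is made when a V, a diversity (D) and a joining (J) gene segment are cut, trimmed and joined, with bases that no gene encodes added at both junctions. The CDR3 spans these junctions and is the part of the chain that mainly contacts the presented peptide. Out-of-frame rearrangements make no receptor and are carried along by cells whose other allele was productive, so they show how a V gene is used before a receptor is selected. CDR3s that need few added bases can be formed repeatedly, and such CDR3s are often found in many animals of an inbred strain. T cells that carry Vβ11 are known to be deleted by endogenous superantigens in strains with the class II molecule I-E, which C57BL/6 mice lack.

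The leading CDR3 had 15 residues, joined TCRBV16-01 to TCRBJ02-07 (Trbj2-7) and held 7377 templates, 19.0% of all productive TCRBV16-01 templates. It was found in 15 of the 16 tumors. The CDR3 next in order of templates held 3776, in 4 tumors. Its most abundant nucleotide form is shown here as deposited, 87 bases 5′ to 3′, with the V gene part before the CDR3 in lower case and the 42 CDR3 bases that the read covers in capitals, the last CDR3 codon lying beyond the end of the read.

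leading CDR3, most abundant rearrangement: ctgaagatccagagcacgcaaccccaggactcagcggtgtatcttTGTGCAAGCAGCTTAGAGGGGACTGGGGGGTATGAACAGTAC

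The same amino acid sequence was spelled by 13 different CDR3 nucleotide sequences, called versions here and numbered by templates. Few CDR3s had more spellings, so this one stood near the top without being alone there. With all V gene labels pooled, for this CDR3 as for the others, 29 of 92981 productive CDR3s were spelled by more nucleotide sequences. The pooled count for this CDR3 also takes in spellings outside the 13 that were seen under other V gene labels. The 8 versions with most templates are shown, together with v9, the remaining one found in 4 tumors, because their differences and their spread over the mice are what the results on this CDR3 turn on. Lower case marks bases assigned to the V, D or J gene and capitals mark bases added at the junctions.

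version v1: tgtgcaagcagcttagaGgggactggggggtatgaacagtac
version v2: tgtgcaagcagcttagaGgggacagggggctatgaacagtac
version v3: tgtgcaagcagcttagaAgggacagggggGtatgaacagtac
version v4: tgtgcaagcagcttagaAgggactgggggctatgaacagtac
version v5: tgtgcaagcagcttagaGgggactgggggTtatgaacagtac
version v6: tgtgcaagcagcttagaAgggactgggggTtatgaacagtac
version v7: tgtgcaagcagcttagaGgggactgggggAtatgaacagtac
version v8: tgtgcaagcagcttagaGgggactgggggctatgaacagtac
version v9: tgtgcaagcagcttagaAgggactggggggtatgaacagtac

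All 13 versions shared a recipe. The first 17 bases came from an untrimmed V gene end, then 1 base was added, then came a D segment untrimmed at its 5′ side, and the J segment had lost 3 or 4 bases. The versions differed at only 3 codons. The single base added after the V gene end was G or A and completed a glutamate codon at position 6, counting residues from 1 at the conserved cysteine. The D segment was TCRBD01-01 in 5 versions with 2029 templates and TCRBD02-01 in 8 versions with 5348 templates, and this set which of 2 threonine codons stood at position 8. All 4 glycine codons occurred at position 10, by trimming alone in 6 versions and with 1 more added base in 7. Of the 16 combinations of these codons, 13 were present. Versions with 1 added base in all held 5309 templates and those with 2 held 2068. Over all productive TCRBV16-01 rearrangements the median number of added bases was 3, and 37.0% ± 3.1 (SD, n = 16) had 2 or fewer.

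The 15 tumors with the leading CDR3 held from 1 to 4 versions each, and the version that dominated changed from mouse to mouse. Version v1 had 1759 templates in control 1, 906 in anti-PD-1 3, 335 in control 3 and 35 in ANT008 1, and none in the other 12 tumors. Version v2 had 896 templates in ANT008 4, 428 in anti-PD-1 2 and 1 in anti-PD-1 4. So v1 and v2 were each abundant in mice of different groups and listed at 0 in most others. Version v6, which was in the most tumors, had 213 templates in ANT008 1, 139 in ANT008 2, 76 in combination 2, 16 in anti-PD-1 3 and 1 in each of control 4 and ANT008 4. Of the 8 versions that passed 100 templates in any tumor, 5 did so in 2 or more tumors. In all, 10 versions were found in at least 2 tumors and 3 in 1 tumor. Whether the entries of 1 template were carried over between libraries was not tested.

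**Figure D1:**
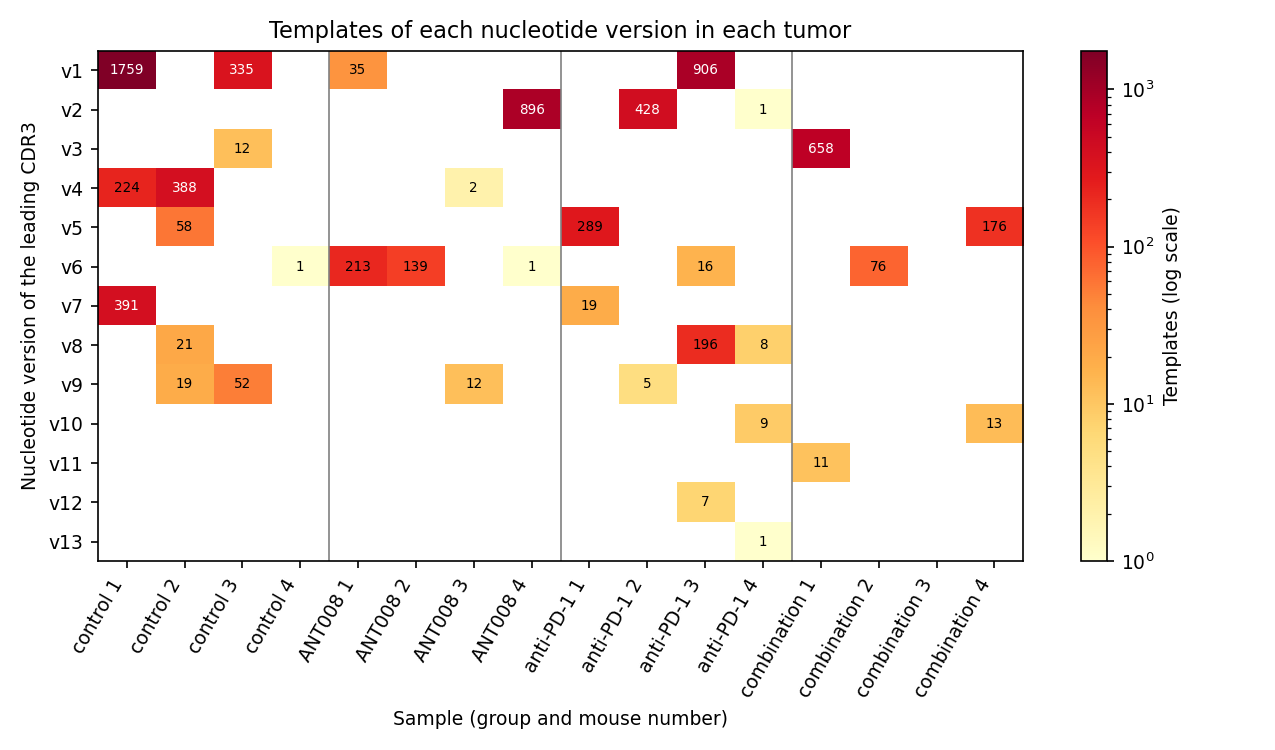
Templates of each of the 13 nucleotide versions (rows, v1 with the most templates at the top) in each of the 16 tumors (columns, grouped by treatment, gray lines between groups). Colour gives the number of templates on a log scale, the number is printed in each cell and white cells held 0; single versions reached 1759 templates in control 1, 906 in anti-PD-1 3 and 896 in ANT008 4, while combination 3 held none.

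The 87-base reads gave 30 distinct rearrangements for the leading CDR3, because 17 of them carried a version with a changed V gene part. These 17 made up 27 sample entries of at most 2 templates each, 38 templates in all. Each of the 27 stood beside the same version with the usual V gene part in the same tumor and differed from that part at 4 to 21 of its 45 bases. The same CDR3 also appeared with other V gene labels, namely with TCRBV15-01 at 10 templates in 9 entries, TCRBV03-01 at 3 templates in 3 entries and TCRBV02-01 at 1 template. The same version was present with TCRBV16-01 in the same tumor for 7 of the 9 TCRBV15-01 entries, 2 of the 3 TCRBV03-01 entries and the single TCRBV02-01 entry. How these entries arose was not tested.

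In control tumors the leading CDR3 had 2374, 486, 399 and 1 templates, which were 9.13%, 1.18%, 1.05% and 0.00268% of productive templates. In ANT008 tumors it had 248, 139, 14 and 897 templates, or 1.09%, 0.422%, 0.121% and 4.32%. In anti-PD-1 tumors it had 308, 433, 1125 and 19 templates, or 0.957%, 1.37%, 1.55% and 0.265%. Within each of these 3 groups the highest and lowest mouse thus lay far apart, most of all among controls. In combination tumors it had 669, 76, 0 and 189 templates, or 2.00%, 0.310%, 0 and 0.523%. All 4 groups overlapped. In combination 3 the count of 0 among 58676 productive templates allows a share of up to 0.00511%. The 95% Wilson interval ran from 8.78 to 9.49% in control 1 and from 0.000473 to 0.0152% in control 4, so the spread among control mice was far wider than the counting error, which is all that these intervals cover.

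Control 1 alone gave 32.2% of all templates of the leading CDR3. Ordered by templates within a tumor, it ranked 3 among all CDR3s in control 1 and combination 1, between 4 and 67 in 12 other tumors and 1156 in control 4. Of 92981 productive CDR3s of any V gene in these tumors, 4 had more templates, 12 were found in 15 or more tumors and 5 in all 16. It made up 78.8% of TCRBV16-01 templates in control 1, 32.7% in control 2, 31.6% in combination 1, 31.2% in anti-PD-1 3 and 28.0% in anti-PD-1 2, and in those 5 tumors it was the most abundant TCRBV16-01 CDR3. In the other 11 tumors another CDR3 led.

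**Figure D2:**
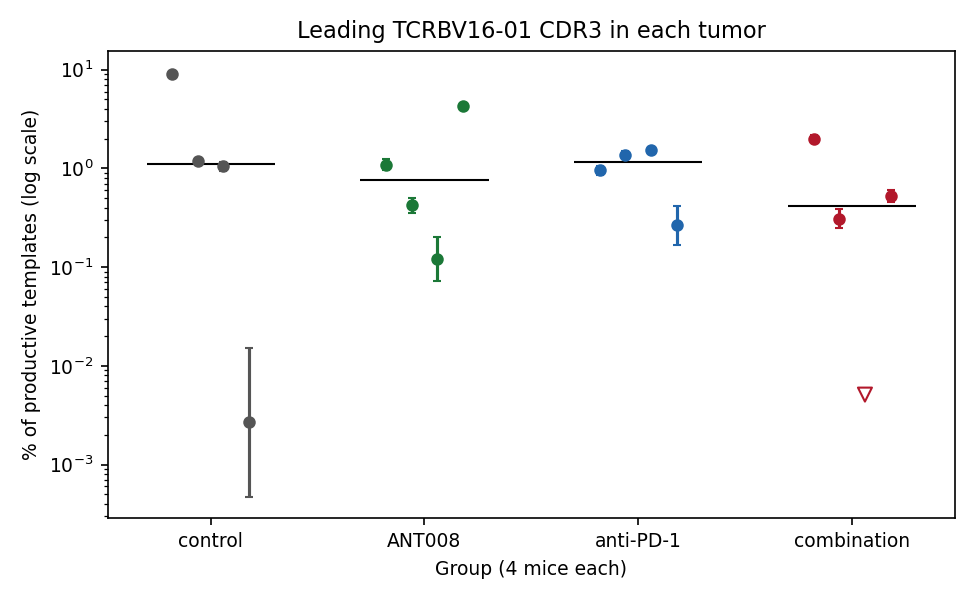
Percent of productive templates held by the leading CDR3 (log scale) in each tumor, 4 mice per group. Bars on points are 95% Wilson intervals for counting error, black lines are group medians, and the open triangle marks combination 3, where 0 templates allow up to 0.00511%; the points of all 4 groups overlap, and control spans from 0.00268 to 9.13%.

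The study set each treatment beside control mice, and the leading CDR3 was compared in that way as 1 of 2188 CDR3s found in at least 4 tumors, counting each CDR3 whatever its V gene. In edgeR's quasi-likelihood test with Benjamini-Hochberg adjustment, its log2 fold change was -0.93 (SE 2.88, adjusted p = 0.945) under ANT008, -1.45 (SE 2.91, adjusted p = 0.906) under anti-PD-1 and -2.002 (SE 2.96, adjusted p = 0.821) under the combination. In this fit none of the 3 differences exceeded the spread between mice. Its SE of nearly 3 log2 units means that it could not have detected even large differences for this CDR3. DESeq2 gave a smaller SE, with -1.73 (SE 1.67) under ANT008 and -1.06 (SE 1.67) under anti-PD-1. Under the combination it gave -3.52 (SE 1.67, unadjusted p = 0.0348, adjusted p = 0.9997), which did not pass after adjustment. In the background, 0% of the 2188 CDR3s passed in each comparison by edgeR, although 254, 253 and 322 had an unadjusted p under 0.05 in the ANT008, anti-PD-1 and combination comparisons, and DESeq2 called 1, 4 and 2 of 2049. Without control 1 the log2 fold change turned to 1.00 (adjusted p = 0.974) under ANT008 and to 0.48 (adjusted p = 1) under anti-PD-1, so that single tumor set the sign of both. Under the combination it was -0.069 (adjusted p = 1) without control 1 and -3.36 (adjusted p = 0.679) without combination 1, so the size of that value rested on single tumors too.

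The CDR3s closest to the leading one were several but small. A difference of 1 residue separated it from 11 TCRBV16-01 CDR3s of the same length, which together had 47 templates, or 0.637% of its own. Of the 1332 TCRBV16-01 CDR3s with 15 residues none had more such neighbours than 11, and their median was 0, while over TCRBV16-01 CDR3s of every length 32 of 5892 had more. Substitution T8W (threonine at position 8 to tryptophan) had 17 templates, 9 in combination 2 and 8 in combination 4. G10D had 10 templates in 2 tumors, G10S had 8 in 1 tumor, E6D had 4 in 2 tumors and Y11F had 2 in 1 tumor, and the 6 others had 1 template each. All 11 used TCRBJ02-07, and no neighbour passed 9 templates in a tumor. Of the 11, 5 were 1 base away from a version of the leading CDR3. For 2 of them, E6K and C1Y, that version was in the same tumor. How these neighbours arose was not tested, and the neighbour counts were not adjusted for the templates or spellings of a CDR3.

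The neighbour E6D, with aspartate in place of glutamate at position 6, is shown because it used the recipe of version v8 with another base at the single added position after the V gene end.

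E6D neighbour: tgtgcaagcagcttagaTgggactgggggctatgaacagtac

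It had 3 templates in anti-PD-1 1 and 1 in anti-PD-1 3, tumors in which the leading CDR3 had 308 and 1125. That added base was then counted over all TCRBV16-01 rearrangements with an untrimmed V gene end, exactly 1 base added there and a D segment whole at its 5′ side. Among out-of-frame rearrangements of this kind, 54 of 65 had G or A there, and 11 had C or T. Among productive ones without the leading CDR3, 24 of 46 had G or A, with 59 templates, and 22 had C or T, with 30 templates. Rearrangements of the leading CDR3 have G or A there by its glutamate codon, so leaving them out could only lower the share of G or A. Nothing was left out of the out-of-frame ones. With the leading CDR3 included, 86 of 108 productive ones had G or A, with 7436 templates. The balance was the other way over all rearrangements with an untrimmed V gene end and at least 1 base added there. Of these, 194 had G or A and 417 had C or T among out-of-frame ones, and 223 and 728 among productive ones without the leading CDR3. These counts pool mice, the same rearrangement can be counted in several mice, and the comparison was noticed in the data and was not tested.

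Position 6 was then described for all TCRBV16-01 CDR3s other than the leading one. Glutamate stood there in 9.0% ± 3.4 of unique rearrangements and 22.0% ± 26.0 of templates, and aspartate in 20.9% ± 2.7 of unique rearrangements and 15.9% ± 11.3 of templates (mean ± SD, n = 16). Glutamate's share of templates was above aspartate's in 5 of 16 tumors. It was 52.6% in control 1 and reached 66.8% in control 4, 76.1% in ANT008 1 and 60.1% in ANT008 4, the last 3 being tumors in which 1 CDR3 with glutamate at position 6 was the most abundant of the gene. It was as low as 2.22% in combination 3. The excess in the mean thus came from a few tumors. Other V genes were compared over CDR3s with the same first 5 residues. There glutamate took 15.3% ± 4.8 of unique rearrangements and 29.8% ± 28.4 of templates in TCRBV16-01 without the leading CDR3, against 7.8% ± 1.3 and 8.0% ± 5.0 in the 19 other V genes. Aspartate took 27.8% ± 4.2 and 24.6% ± 18.2 against 11.6% ± 1.3 and 20.5% ± 13.8, so both residues were more frequent with TCRBV16-01 by unique rearrangements, and these differences were not tested.

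The other abundant TCRBV16-01 CDR3s were nearly private to 1 mouse. The 5 with most templates after the leading one are shown by their main nucleotide sequence in the same notation, for contrast with the versions above.

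14 residues, TCRBJ02-07, control 4: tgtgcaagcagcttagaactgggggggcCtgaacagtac
14 residues, TCRBJ02-07, control 3: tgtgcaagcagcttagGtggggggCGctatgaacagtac
15 residues, TCRBJ01-03, combination 4: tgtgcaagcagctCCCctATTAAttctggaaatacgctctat
15 residues, TCRBJ02-07, ANT008 1: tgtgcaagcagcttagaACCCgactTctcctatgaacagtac
14 residues, TCRBJ02-05, ANT008 4: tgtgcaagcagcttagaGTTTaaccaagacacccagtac

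The first had 3743 templates in control 4, 10.0% of that tumor's productive templates (95% Wilson interval 9.74 to 10.3%), and 30 in ANT008 4 as its next highest count. The second had 2130 templates in control 3 (5.59%) and 2 in ANT008 1. The remaining 3 were each seen in 1 tumor only, at 1703 templates in combination 4 (4.71%), 1205 in ANT008 1 (5.31%) and 1021 in ANT008 4 (4.92%). They carried 1 to 8 added bases, and 3 of the 5 had glutamate at position 6.

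The CDR3s found in most tumors after the leading one were far smaller. A 14-residue CDR3 with TCRBJ02-07 had 126 templates in 9 tumors, 86 of them in combination 3. The CDR3 made by removing the glutamate at position 6 from the leading one was also in 9 tumors, spelled by 9 nucleotide sequences, yet had 26 templates and at most 5 in a tumor. A 14-residue CDR3 with TCRBJ01-02 had 959 templates in 8 tumors, 777 in control 4 and 158 in anti-PD-1 2. Those with TCRBJ01-03 and TCRBJ01-01 had 23 and 17 templates in 7 tumors each. Of the 5892 TCRBV16-01 CDR3s, 93.9% were in 1 tumor only and 4 were in 8 or more. At the nucleotide level, 166 of 6649 productive TCRBV16-01 rearrangements (2.50%) and 41 of 3656 out-of-frame ones (1.12%) were in at least 2 tumors. Without the leading CDR3 the productive share was 2.25%. Pooled over the other V genes it was 2.55% of 115400 productive and 0.557% of 66112 out-of-frame rearrangements, so productive sharing was close to that of other V genes, and no test was run on these shares. The median number of added bases was 1 in the shared productive rearrangements and 3 in the unshared ones, and 2 and 4 in the out-of-frame ones.

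TCRBV16-01 as a whole varied widely among mice by templates. It took 11.6%, 3.61%, 11.6% and 16.9% of productive templates in the control tumors. It took 9.52%, 5.17%, 6.55% and 14.8% in the ANT008 tumors and 5.64%, 4.90%, 4.97% and 5.67% in the anti-PD-1 tumors. The anti-PD-1 values lay close together, above control 2 and below the other 3 controls. In the combination tumors it took 6.33%, 3.78%, 3.30% and 9.99%. From high to low, the group means were 10.9% ± 5.5 (SD, n = 4) in control, 9.0% ± 4.2 in ANT008, 5.8% ± 3.1 in combination and 5.3% ± 0.4 in anti-PD-1 tumors. Each step in this order was smaller than the larger SD of the 2 groups. Control and anti-PD-1, the 2 ends of the order, lay further apart than either SD. All groups overlapped with control in this measure. The gene ranked between 1 and 11 among V genes, and the counting error was small beside this, with a 95% Wilson interval of 11.2 to 12.0% in control 1.

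By unique rearrangements the same gene was nearly constant. It took 5.00 to 6.30% of unique productive rearrangements over the 16 tumors, with group means of 5.5% ± 0.4 in control, 5.7% ± 0.4 in ANT008, 5.33% ± 0.05 in anti-PD-1 and 5.32% ± 0.37 in combination tumors. The coefficient of variation over all tumors was 6.14% for unique rearrangements and 53.4% for templates. Between 62.3 and 80.2% of a tumor's TCRBV16-01 rearrangements had 1 template.

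**Figure D3:**
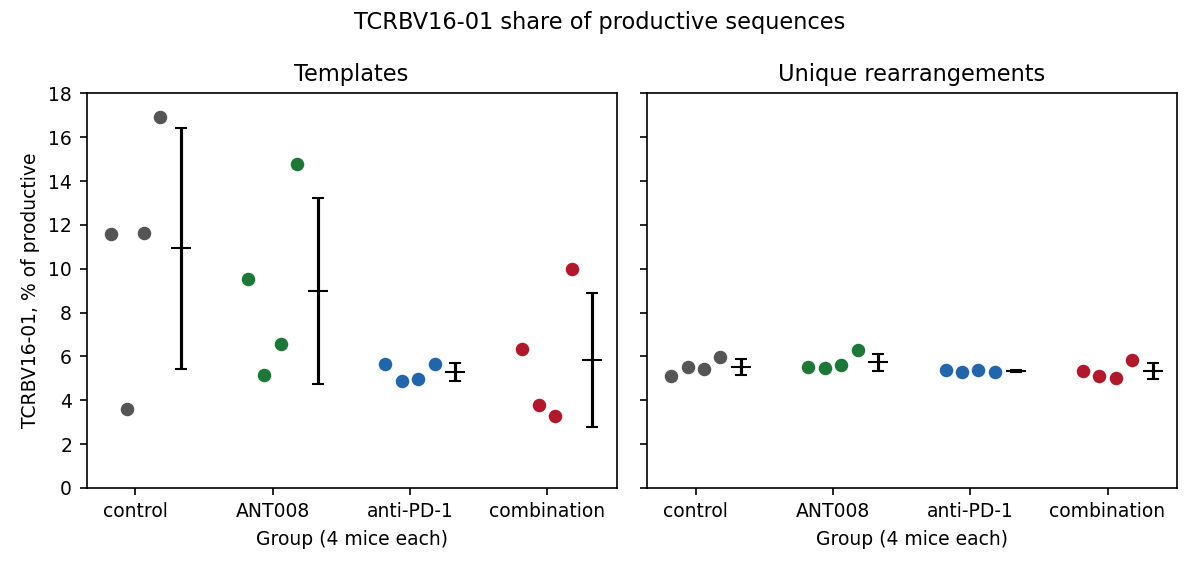
TCRBV16-01 as percent of productive templates (left) and of unique productive rearrangements (right), 1 point per mouse, with the group mean and SD (n = 4) to the right of the points. Template shares run from 3.30 to 16.9% and unique rearrangement shares from 5.00 to 6.30% on the same axis.

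In edgeR's quasi-likelihood test across 33 V genes, the log2 fold change of the TCRBV16-01 template share against control was -0.28 (SE 0.49, adjusted p = 0.893) for ANT008, -1.05 (SE 0.49, unadjusted p = 0.0379, adjusted p = 0.390) for anti-PD-1 and -0.90 (SE 0.49, adjusted p = 0.335) for the combination. None passed after Benjamini-Hochberg adjustment. DESeq2 gave -0.46 (SE 0.52, adjusted p = 0.927) for ANT008. It gave -1.39 (SE 0.52, unadjusted p = 0.00724, adjusted p = 0.112) for anti-PD-1 and -1.28 (SE 0.52, unadjusted p = 0.0135, adjusted p = 0.110) for the combination, and none of these passed after adjustment. In the edgeR fit the departure of the combination from the sum of both single agents was 0.42 (SE 0.69, adjusted p = 0.887). That departure ran from 0.035 without combination 4 to 0.77 without ANT008 4. In the background, 3.03% of the V genes passed in the ANT008 comparison (TCRBV24-01), 0% under anti-PD-1 by edgeR, with 4 at an unadjusted p under 0.05 and 0 by DESeq2, and 3.03% under the combination (TCRBV14-01). TCRBV24-01 also made up the 3.03% that passed for the departure from the sum. Without control 4 no V gene passed in the ANT008 comparison. With unique rearrangements as counts, the TCRBV16-01 log2 fold changes were 0.05, -0.05 and -0.05 (SE 0.10 each) under ANT008, anti-PD-1 and the combination.

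Single CDR3s set much of the template share. The most abundant TCRBV16-01 CDR3 of a tumor took from 9.50% of the gene's templates in combination 2 to 78.8% in control 1, with a median of 32.6%. Its share of the gene was 54.8% ± 19.4 (SD, n = 4) in control, 39.6% ± 21.6 in ANT008, 29.0% ± 3.7 in anti-PD-1 and 25.6% ± 17.2 in combination tumors. With that 1 CDR3 subtracted, TCRBV16-01 took 4.4% ± 2.3, 5.4% ± 3.1, 3.8% ± 0.4 and 4.0% ± 1.1 of productive templates in the same order. When the most abundant CDR3 of every V gene in every tumor was taken out, an alternative chosen after seeing the data, the log2 fold change was 0.03 for ANT008. It was -0.51 for anti-PD-1 and -0.50 for the combination (SE 0.30 in each comparison).

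**Figure D4:**
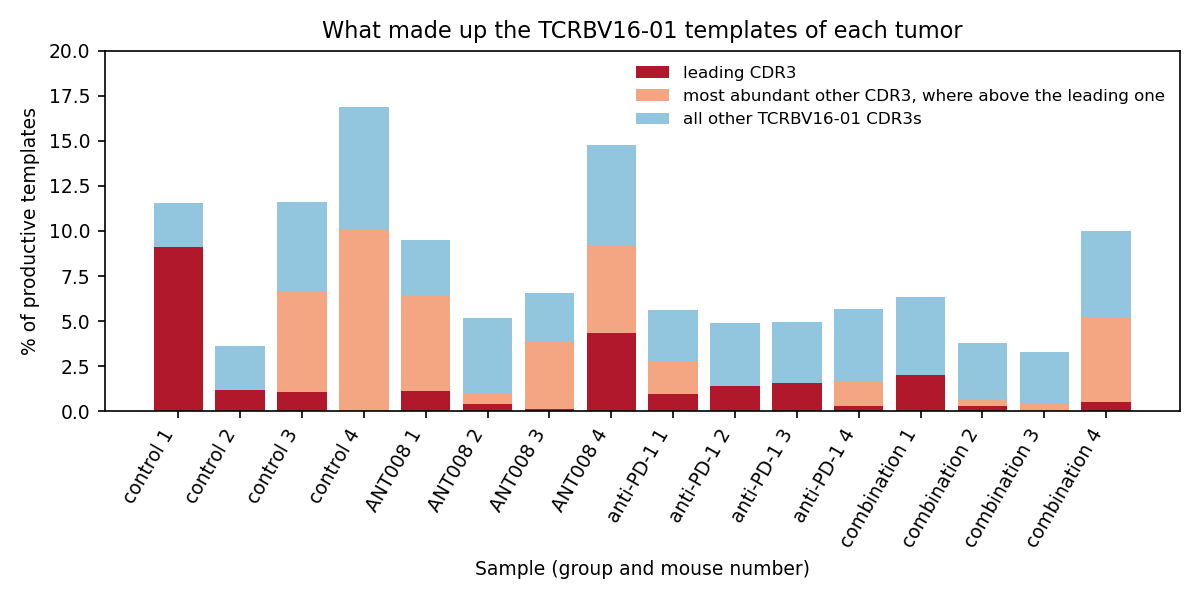
Percent of productive templates in each tumor that belonged to TCRBV16-01, split into the leading CDR3, the most abundant other CDR3 in tumors where it outranked the leading one, and the rest. The leading CDR3 fills most of the bar in control 1 (9.13 of 11.6%), whereas in control 4 another CDR3 with 10.0% does.

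A list of 4 genes near Trbv16 along the locus served for comparison, namely Trbv14, Trbv15, Trbv17 and Trbv19, since V genes that lie together can be rearranged at similar rates. By templates, 1 of the 4 passed in the combination comparison, TCRBV14-01 at -2.03 (SE 0.59, adjusted p = 0.0352), and none of the 4 passed under ANT008 or anti-PD-1 by edgeR, where TCRBV17-01 had an unadjusted p of 0.0319 and 0.0485. In the combination comparison by edgeR, TCRBV15-01 was at 0.996 (SE 0.44, unadjusted p = 0.0263, adjusted p = 0.217) and did not pass. The TCRBV14-01 call rested on single tumors, since no V gene passed in that comparison without control 1, control 4, ANT008 4 or combination 3. The median share of unique productive rearrangements was 2.53% for TCRBV14-01, 2.93% for TCRBV15-01, 5.40% for TCRBV16-01, 2.49% for TCRBV17-01 and 7.44% for TCRBV19-01. Over the 16 tumors the V genes whose template shares followed TCRBV16-01 most closely were TCRBV09-01 (Spearman's rho 0.37), TCRBV05-01 (0.34) and TCRBV21-01 (0.26), all low values over shares that come from the same libraries and add up to a fixed total. TCRBV09-01 is annotated as a pseudogene. The rho furthest from 0 was negative, at -0.59 for TCRBV15-01 of the locus list, and none of these values was tested.

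The share of TCRBV16-01 in productive rearrangements was set beside its share in out-of-frame ones to ask whether the gene was used differently before and after selection of the receptor. It took 5.5% ± 0.3 of unique productive and 5.4% ± 0.4 of unique out-of-frame rearrangements (SD, n = 16). The mean log2 ratio was 0.03 (SE 0.02) and was positive in 10 of 16 tumors (two-sided exact sign-flip permutation test over samples, adjusted p = 0.250). Of 35 V genes 74.3% passed this test, with 25.7% higher and 48.6% lower among productive rearrangements, so TCRBV16-01 was 1 of the 9 that did not. The lower side includes genes annotated as pseudogenes, such as TCRBV10-01 and TCRBV22-01. It also includes TCRBV06-01 and TCRBV12-03, which had no productive rearrangement, so that their ratios came from the 0.5 added to each count. The 74.3% is therefore not a share of functional V genes. In the locus list TCRBV14-01 was higher (0.24, SE 0.03, adjusted p = 0.000134) and TCRBV15-01 lower (-0.67, SE 0.05, adjusted p = 7.63e-05), and the values of TCRBV17-01 (-0.00077, SE 0.03) and TCRBV19-01 (-0.03, SE 0.03) did not pass. By templates the TCRBV16-01 ratio was larger and passed, at 0.60 (SE 0.25, 11 of 16 tumors, adjusted p = 0.0439), and with stop-codon rearrangements added to the reference it was 0.05 (SE 0.02, adjusted p = 0.0437). Most V genes passed in these settings as well, 24 of 35 by templates and 29 of 35 with stop-codon rearrangements in the reference. Out-of-frame templates of the gene ranged from 2.15 to 7.52% of all out-of-frame templates and productive ones from 3.30 to 16.9%.

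TCRBV16-01 was joined most often to TCRBJ02-07. This J gene took 24.7% ± 2.3 (SD, n = 16) of unique productive TCRBV16-01 rearrangements against 20.9% ± 0.9 in all other V genes. The mean log2 ratio was 0.24 (SE 0.03, adjusted p = 0.000107 by the exact sign-flip permutation test, its unadjusted p of 3.05e-05 being the smallest that 16 tumors allow). The ratio was positive in 16 of 16 tumors with 0.5 added to each count and in 15 of 16 with nothing added, where anti-PD-1 2 had 20.6% against 20.7%. It was 0.19 (SE 0.04, adjusted p = 0.000427) without the leading CDR3 and 0.30 (SE 0.06, adjusted p = 0.00185, 14 of 16 tumors) among out-of-frame rearrangements, so the pairing was also present in sequences that make no receptor. By templates TCRBJ02-07 took from 9.66% of TCRBV16-01 in ANT008 3 to 84.3% in control 1.

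Of 14 J genes 50% passed in either direction. TCRBJ01-06 was lower with TCRBV16-01 in 16 of 16 tumors, at 1.6% ± 0.6 of unique productive rearrangements against 3.2% ± 0.3 (log2 ratio -0.93, SE 0.14, adjusted p = 0.000107). TCRBJ01-05 (-0.59), TCRBJ01-02 (-0.27) and TCRBJ02-01 (-0.14) were also lower, so that 28.6% of J genes passed on the lower side and 21.4% on the higher. The other 2 that passed, TCRBJ01-07 and TCRBJ02-06, had at most 1 TCRBV16-01 productive rearrangement in any tumor, so that their ratios came from the 0.5 added to each count and are not read here. With nothing added, 6 of the 12 J genes found with TCRBV16-01 in every tumor passed, TCRBJ02-07 being the only one that was higher (8.33% of the 12). Among out-of-frame rearrangements TCRBJ01-06 was at -0.44 (SE 0.21, adjusted p = 0.0840).

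**Figure D5:**
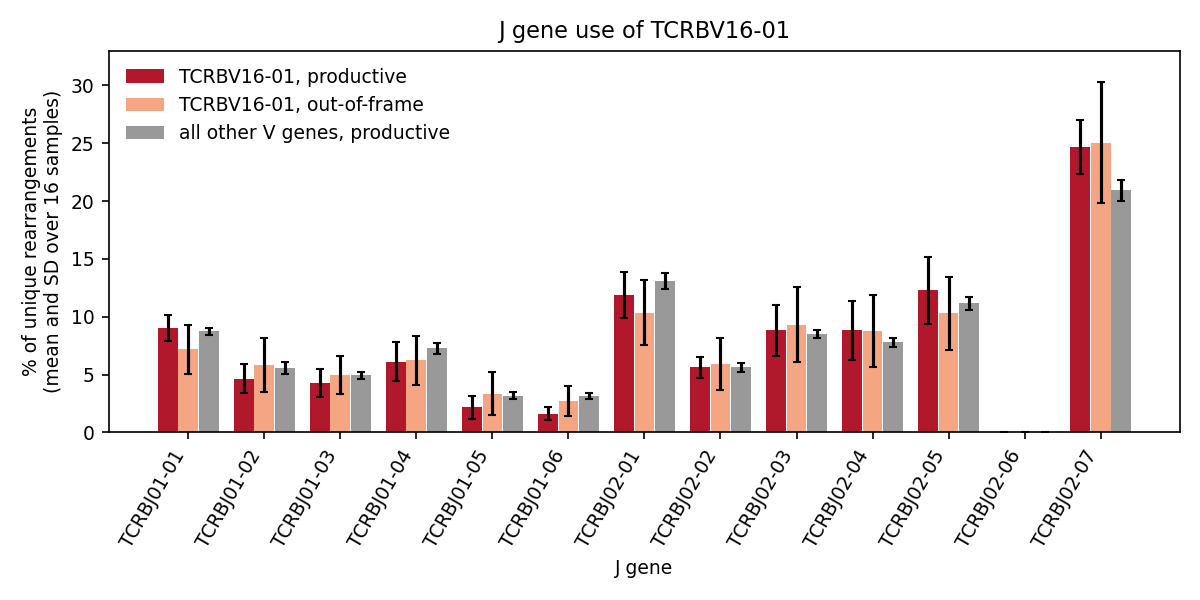
Share of each J gene in unique rearrangements, as mean and SD over 16 tumors, for productive and out-of-frame TCRBV16-01 rearrangements and for productive rearrangements of all other V genes. TCRBJ02-07 is the tallest set of bars, at 24.7% and 25.0% for TCRBV16-01 and 20.9% for the other V genes, and TCRBJ02-06 is near 0.

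In the averages of added bases and of untrimmed V gene ends, the junctions of TCRBV16-01 otherwise resembled those of other V genes. The mean CDR3 was slightly longer. Productive TCRBV16-01 rearrangements had 3.6 ± 0.2 added bases and a CDR3 of 42.5 ± 0.4 bases, against 3.6 ± 0.1 and 41.99 ± 0.19 in the others (mean of tumor means ± SD, n = 16). The V gene end was untrimmed in 22.9% ± 4.0 of them and in 23.3% ± 0.8 of the others. No test was run on these averages.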

How the data were processed

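T cells from each of 16 tumors were surveyed for TCRβ by the immunoSEQ assay of Adaptive Biotechnologies. The authors deposited 1 entry per unique 87-base rearrangement, with template counts (whole numbers, as estimated by the service), V, D and J gene labels, reading frame, and the numbers of trimmed and added bases. The aligner and genome build are not given in the sources used here, so no coordinates are printed. Gene symbols and their order along the locus came from RefSeq (GRCm38.p6). Depth was 7180 to 72588 productive templates per sample (median 32564) and 2526 to 13939 unique productive rearrangements, which limits what a rare clone's count can show.

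Groups were taken from the sample titles, and the deposited names carry another number than the titles in 13 samples. Productive template counts per V gene (33 genes), and per CDR3 found in at least 4 samples (2188), were fitted over all 16 samples with edgeR 4.0.16 (quasi-likelihood, library size fixed at productive templates, Benjamini-Hochberg adjustment over all features of a table). Paired shares within samples were compared by exact sign-flip permutation over samples, two-sided, with 0.5 added to counts. The SE given with an edgeR value is the size of its log2 fold change divided by the square root of the test's F statistic. The p-value threshold was 0.05. Alternatives were TMM, DESeq2 1.42.0, other filters, unique rearrangements, out-of-frame templates, a replicate block and leaving out each sample. The deposited counts were otherwise used unchanged, and the scripts were tested on simulated data.

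Named items were the 8 nucleotide versions with most templates and any other in 4 or more samples, the 10 neighbours with most templates, the 5 CDR3s with most templates and the 5 in most samples after the leading one, all J genes, 4 locus neighbours and the 3 V genes most alike. The members and lists were chosen with earlier results of these data known. Amino acid sequences of the CDR3s are not printed. Wilson intervals (95%) and the limit for a count of 0 (3 templates) cover counting error only.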

Additional observations from a re-analysis of the deposited data

Results flagged for a closer look

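In 3 cases 1 mouse stood far from the other 3 of its group, by Dixon's test on the gap to the nearest mouse as a part of the group's range. The leading CDR3 took 9.13% of productive templates in control 1, against 1.18% in the next control mouse (gap 0.871 of the range). TCRBV16-01 took 6.30% of unique productive rearrangements in ANT008 4, against 5.61% in the next ANT008 mouse (0.840). It took 6.22% of unique out-of-frame rearrangements in control 4, against 5.40% in the next control mouse (0.848). Such a gap is met by chance in about 1 of 20 groups, and 24 groups were examined. No explanation of these values was tested.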

How the results depend on the processing

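Of 62 alternative settings over the 9 comparisons, 53 kept the direction and the side of the threshold. No alternative brought a treatment comparison of TCRBV16-01 or the leading CDR3 past the threshold (165 fits, leaving out samples included). The TCRBV16-01 log2 fold change under ANT008 turned from -0.28 to 0.051 with unique rearrangements and to 0.026 with the top CDR3 of every V gene taken out (chosen after seeing the data, as was adding nothing to J counts), and under anti-PD-1 from -1.05 to 0.030 with out-of-frame templates. The departure from the sum turned from 0.42 to -0.051, -0.060 and -0.022 under these 3 settings in the order unique rearrangements, out-of-frame templates and top CDR3s taken out. The leading CDR3 under anti-PD-1 turned from -1.45 to 0.014 with its nucleotide rearrangements as counts. The productive against out-of-frame ratio went from 0.03 to 0.60 with templates and to 0.055 with stop-codon rearrangements in the reference, both then past the threshold. So were 24 and 29 of 35 V genes in these settings. The cause of these changes was not tested.

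Leaving out 1 sample at a time, the TCRBV16-01 value under ANT008 ran from -0.63 to 0.011 (without control 4), and the leading CDR3 from -2.37 to 1.00 under ANT008 and from -1.87 to 0.48 under anti-PD-1, both highest without control 1. In the other 6 comparisons no direction or call changed, but the leading CDR3 under the combination ran from -3.36 (without combination 1) to -0.069 (without control 1) and the departure from 0.035 (without combination 4) to 0.77 (without ANT008 4). TCRBV16-01 ran from -1.34 to -0.76 under anti-PD-1 and from -1.29 to -0.61 under the combination. The number of V genes called ran from 0 to 2 under ANT008, 0 to 2 under anti-PD-1, 0 to 3 under the combination and 1 to 3 for the departure from the sum. The combination count, 1 in the full fit, was 0 with filterByExpr, with unique rearrangements, without the leading CDR3 and with top CDR3s taken out, and 3 with out-of-frame templates. The ANT008 count and that for the departure, both 1, were 0 with unique rearrangements and with out-of-frame templates, and the latter was also 0 with top CDR3s taken out. With nucleotide rearrangements as counts, 0, 1 and 2 of the 2188 CDR3s were called. The J genes called were 5 of 14 with 1 added or without the leading CDR3, 3 of 14 out-of-frame and 9 of 14 by templates.

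Replicate numbers, taken from the titles, were not treated as pairing animals in the main fits. Deviations of same-numbered samples over 24 V genes correlated between -0.37 and 0.67, and 4 of 16 samples correlated best with their own number. The numbers in the deposited names were not examined in this way, so a pairing by those numbers was not tested. With the replicate block the TCRBV16-01 values were -0.26, -0.86 and -0.89 and the departure 0.24, the leading CDR3 values were -0.70, -0.23 and -2.26, and the same number of V genes was called in each comparison. At the depth of 7180 productive templates in anti-PD-1 4, a count of 0 would still allow a share of up to 0.0418%.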
